A study of Mus musculus with 5 samples.

Results

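Genes of the TCA cycle and the malate-aspartate shuttle, 8 in number (Cs, Idh3b, Ogdh, Dlst, Mdh2, Mdh1, Got1 and Got2), were described by the ACAA2 ChIP-seq signal of the regions assigned to them. Their 10 regions are every region, of 3885 in the deposited table, whose list of genes names at least 1 of the 8. The table names 5134 gene symbols in all. Every one of the 8 genes has a region because the genes were chosen from those listed in the table, so their having a region is not a result.

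ACAA2, the mitochondrial 3-ketoacyl-CoA thiolase that releases acetyl-CoA in fatty acid beta-oxidation, was precipitated from heart chromatin and the DNA was sequenced. Male C57Bl/6J mice, 12 weeks old, made up 4 groups: transverse aortic constriction (TAC) on a 60 kcal% fat diet, sham surgery on that diet, TAC on a 10 kcal% fat diet, and sham surgery on that diet. TAC is a surgical narrowing of the aorta that makes the left ventricle pump against a raised pressure. All mice ate their diet for 4 days before surgery and for 1 week after it. Each group has 1 library, which the protocol describes as a pool of 3, so the variation between hearts is unknown and no difference was tested. The antibody label and the series title name ACAA2, whereas the text on extraction speaks of antibodies to the butyryl and acetyl marks of H3K9. These readings cannot be told apart from the table, and the values are given as ACAA2 signal because its columns are named so. A pooled input sample is listed too and was not used here, so the signal of open chromatin itself was not subtracted.

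The TCA cycle oxidises acetyl-CoA in the mitochondrial matrix and passes the electrons to the respiratory chain, which makes most of the ATP of a beating heart. Citrate synthase (Cs) joins acetyl-CoA with oxaloacetate. The NAD-dependent isocitrate dehydrogenase, of which Idh3b encodes a subunit, and the 2-oxoglutarate dehydrogenase complex, built from Ogdh and Dlst with a shared dehydrogenase, release carbon dioxide and NADH, and Mdh2 restores oxaloacetate. The malate-aspartate shuttle carries the electrons of cytosolic NADH into the matrix. It uses one malate dehydrogenase and one aspartate aminotransferase on each side of the inner membrane: Mdh1 and Got1 in the cytosol, Mdh2 and Got2 in the matrix.

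The regions lay at gene starts, with 3 exceptions. Against the RefSeq start sites of GRCm38.p6, the same assembly as the authors' mm10, 7 regions covered a start site of their gene: those of Cs, Dlst, Mdh1 and Got1, both regions of Ogdh and 1 of the 2 regions of Mdh2. The other Mdh2 region ended 390 bp before the start. The Got2 region lay inside the gene, with its near edge 1115 bp past the start. The region listed for Idh3b lay 4600 bp beyond the far end of that gene and was centred 10080 bp downstream of its start. It was centred 41 bp upstream of the start of Nop56, a gene of ribosome assembly, by the authors' distances. By position its signal is thus that of the Nop56 promoter, and it is kept here only because its list of genes names Idh3b. Of the 10 regions, 9 held a CpG island (90%, against 73.7% of all regions) and 10 a promoter as the authors count them (100%, against 82.6%).

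**Figure D1:**
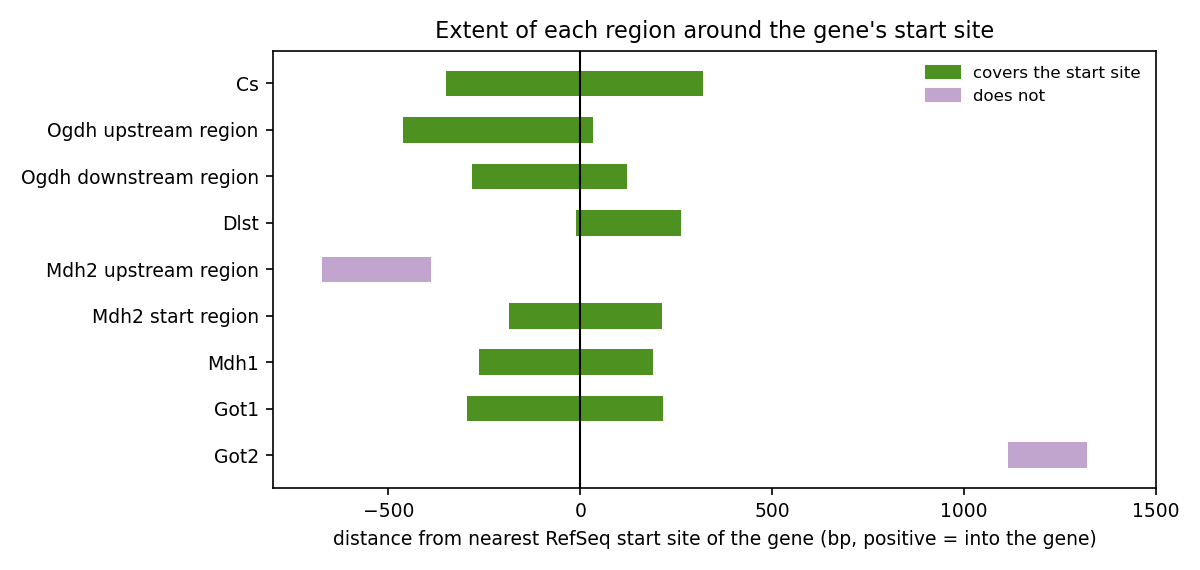
Extent of 9 regions (bars) along the distance in bp from the nearest RefSeq start site of the gene, positive into the gene, green where the bar covers the start and purple where it does not. The Idh3b region, centred 10080 bp downstream of its gene's start, is off the scale and not drawn. The Mdh2 upstream region stops 390 bp before the start and the Got2 region begins 1115 bp after it.

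Promoter sequence under the signal is shown for 4 genes whose start is covered and for a stretch of Mdh1, because it differs in kind between the members. The sequences are from RefSeq (GRCm38.p6), read 5′ to 3′ on the gene's strand, and those of Cs, Got1, Mdh2 and Ogdh end at the base before a start site. Capitals mark exact matches, on either strand, to 7 motifs: CCAAT (reverse ATTGG), the GC box GGGCGG (reverse CCGCCC), the E box CACGTG, the NRF1 core GCATGCGC (reverse GCGCATGC), ERR TCAAGGTCA, YY1 AAGATGGCG and the core CTCGCGAG of the CGCG element. The last was added after the Mdh2 sequence was read. No matches in these sequences overlap.
Cs, chr10:128337607-128337726, + strand: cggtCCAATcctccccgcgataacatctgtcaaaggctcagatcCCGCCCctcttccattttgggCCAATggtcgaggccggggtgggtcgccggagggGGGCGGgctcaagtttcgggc
Got1, chr19:43524606-43524775, - strand: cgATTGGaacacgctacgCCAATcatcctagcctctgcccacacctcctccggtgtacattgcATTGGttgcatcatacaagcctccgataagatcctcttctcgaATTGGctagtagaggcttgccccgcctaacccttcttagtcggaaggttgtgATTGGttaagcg
Mdh2, chr5:135778449-135778648, + strand: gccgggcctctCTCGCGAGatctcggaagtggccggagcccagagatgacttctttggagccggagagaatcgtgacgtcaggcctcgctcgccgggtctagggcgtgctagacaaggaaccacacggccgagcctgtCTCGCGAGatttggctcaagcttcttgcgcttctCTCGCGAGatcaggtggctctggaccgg
Ogdh, chr11:6292408-6292557, + strand: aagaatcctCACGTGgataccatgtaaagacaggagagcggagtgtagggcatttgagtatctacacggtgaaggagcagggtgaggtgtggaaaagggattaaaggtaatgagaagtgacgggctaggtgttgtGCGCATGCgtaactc
Mdh1, chr11:21571992-21572020, - strand: cacagacgcgctCCAATcaccgaggctca

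Got1 had 5 CCAAT boxes within 170 bases, Cs had 2 CCAAT boxes and 2 GC boxes within 120 bases, and Mdh2 had 3 CGCG cores and none of the other motifs within 200 bases, 187 of which lie in its start region. The Ogdh sequence lies in the downstream of its 2 regions, before an internal start of the gene, and holds an E box and an NRF1 core. The 29 bases of Mdh1 surround the nearer of its 2 CCAAT boxes. CCAAT occurred in 37.4% of all 32851 promoter windows of 300 bases and in 45% of the 2890 windows that overlap a region of the table. The corresponding shares were 35.7% and 69.5% for the GC box, 7.15% and 12.4% for the E box, 2.71% and 6.40% for the NRF1 core, and 0.919% and 3.01% for the CGCG core. Among the 13 promoter windows of the 8 genes, some of which overlap, CCAAT occurred in 10 and the GC box in 8, each at 5 genes. The E box occurred in 3 and the NRF1 core in 2, all at Ogdh, and the CGCG core in 1, at Mdh2. Outside the printed stretches, Mdh1 and Mdh2 each had a GC box 244 bases before the start. The Ogdh window at the start in the upstream region held a GC box, CCAAT boxes and an E box. In the 13 windows, ERR (0.423% of all windows, 0.138% of those in regions) and YY1 (1.40% and 4.71%) had 0 matches. A match is a run of letters and was not tested as a site of binding.

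The signal is the mean fragment pileup over a region, as the authors deposited it. Summed over the 10 regions, it stood for an estimated 242 fragments in TAC hearts and 156 in sham hearts on 60% fat diet, against 218 in TAC and 204 in sham hearts on 10% fat diet. The exact Poisson intervals at the 95% level were 213 to 275, 133 to 183, 190 to 249 and 177 to 234, in that order. These intervals, and those of ratios and of differences below, cover counting error only. The intervals of medians below come from order statistics and reflect the spread between regions. They treat the regions as independent, although some are neighbours at the same gene. Whether copies of a fragment were removed is not given here, so the fragments may include copies. Over all 3885 regions the same libraries held 62559, 49593, 68963 and 75313 fragments, so the 10 regions took 0.387%, 0.315%, 0.316% and 0.271% of them. The total depth of each library, and whether depths were matched, is not given here. The median signal of the 10 regions was 12.7 in TAC and 6.80 in sham hearts on 60% fat diet (9.67 and 7.29 over all regions), and 10.7 in TAC and 9.96 in sham hearts on 10% fat diet (10.7 and 11.8 over all regions).

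A region enters the table when the authors called an interval in at least 1 library, so each of the 10 had to be high somewhere. Ratios, ranks and intervals below do not correct for this selection. Of the 10 regions, 6 carried a call in TAC and 2 in sham hearts on 60% fat diet, against 4 in TAC and 3 in sham hearts on 10% fat diet. The shares of all regions with a call were 35.9%, 15.4%, 46.8% and 57.3% in the same libraries. A call was made in 1 library for 6 regions, in 2 for 3 regions and in 3 for 1 region, the one listed for Idh3b. Over all regions the shares were 63.8%, 21% and 11.1%, close to those of the 10.

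**Figure D2:**
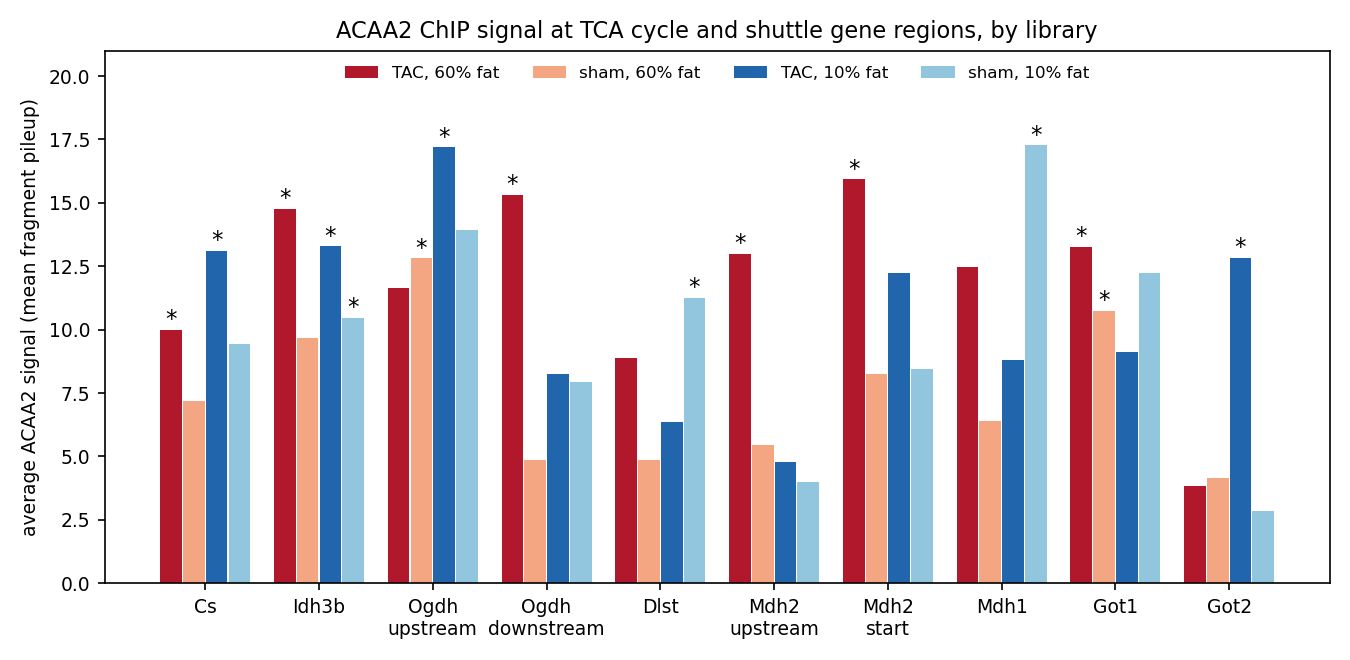
Average ACAA2 signal (mean fragment pileup, axis from 0) of the 10 regions in the 4 libraries, 1 bar per library, with an asterisk where the authors called an interval. The 2 regions of Mdh2, the downstream region of Ogdh, Got1 and the region listed for Idh3b were highest in TAC hearts on 60% fat diet, Mdh1 and Dlst in sham hearts on 10% fat diet, and Cs, the upstream region of Ogdh and Got2 in TAC hearts on 10% fat diet. The shares of all regions highest in these libraries were 20.8%, 42.8% and 31.5%, in that order.

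Cs, whose product opens the cycle, was higher in both TAC libraries. Its signal at chr10:128337378-128338046 was 10.0 in TAC and 7.20 in sham hearts on 60% fat diet, against 13.1 in TAC and 9.45 in sham hearts on 10% fat diet. The log2 ratio of TAC over sham, computed with a pseudocount of 1 as all ratios here, was 0.42 (counting interval -0.37 to 1.35) on 60% fat diet and 0.43 (-0.26 to 1.22) on 10% fat diet, a difference of -0.01 between diets. Both TAC libraries and no sham library carried a call. The region listed for Idh3b, at the Nop56 promoter (chr2:130274033-130274709), had 14.8 in TAC and 9.67 in sham hearts on 60% fat diet, against 13.3 in TAC and 10.5 in sham hearts on 10% fat diet. Again the TAC library was the higher on each diet, with log2 ratios of 0.56 (-0.09 to 1.34) and 0.32 (-0.37 to 1.06).

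Ogdh, the oxoglutarate-decarboxylating enzyme of its complex, had 2 regions separated by 75 bp, and their signals differed in order. The upstream one (chr11:6291708-6292202) had the highest mean signal of the 10, rank 250 among all regions, and covers an internal start site. It had 11.6 in TAC and 12.8 in sham hearts on 60% fat diet, against 17.2 in TAC and 13.9 in sham hearts on 10% fat diet. The downstream one (chr11:6292277-6292681), over later starts, had 15.3 in TAC and 4.85 in sham hearts on 60% fat diet, against 8.23 in TAC and 7.92 in sham hearts on 10% fat diet. TAC over sham on 60% fat diet was thus -0.13 (-0.97 to 0.68) in the upstream and 1.48 (0.52 to 2.95) in the downstream region, which ranked 190 from the highest of all regions. The downstream region was called only in TAC hearts on 60% fat diet, so selection enters that ratio. With the 2 regions summed by length, Ogdh had 13.3 in TAC and 9.23 in sham hearts on 60% fat diet and 13.2 in TAC and 11.2 in sham hearts on 10% fat diet. The ratio of TAC over sham was then 0.48 (-0.11 to 1.17) on 60% fat diet, so the summed gene was within 2-fold.

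Dlst, the succinyl-transferring enzyme of the same complex, had a weak region (chr12:85110823-85111096) that begins 10 bp before a start site of the gene. The authors also assign it to Prox2, a homeobox gene whose start lies farther away. It had 8.88 in TAC and 4.88 in sham hearts on 60% fat diet, against 6.38 in TAC and 11.3 in sham hearts on 10% fat diet. The sham library on 10% fat diet was the highest and the only one called, and the sham library on 60% fat diet the lowest. The log2 ratio of TAC over sham was 0.75 (-0.71 to 2.60) on 60% fat diet and -0.73 (-2.30 to 0.55) on 10% fat diet, and with 5.94 to 13.7 fragments per library these intervals are wide.

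Mdh2, the matrix malate dehydrogenase, serves both the cycle and the shuttle, and its promoter lies back to back with that of Styxl1, a phosphatase-like gene to which both its regions are also assigned. The start region (chr5:135778462-135778861) had 15.9 in TAC and 8.23 in sham hearts on 60% fat diet, against 12.2 in TAC and 8.46 in sham hearts on 10% fat diet. The upstream region (chr5:135777977-135778259), 203 bp away, had 13.0 in TAC and 5.44 in sham hearts on 60% fat diet, against 4.78 in TAC and 4.00 in sham hearts on 10% fat diet. In both regions TAC hearts on 60% fat diet were the highest and the only library called. Selection thus enters each ratio with that library, and its interval, for the single regions and for their sum. The sum was chosen after seeing the data. Summed over both, TAC over sham was 0.96 (0.28 to 1.87) on 60% fat diet and 0.41 (-0.41 to 1.37) on 10% fat diet. TAC hearts on 60% over those on 10% fat diet stood at 0.63 (-0.03 to 1.42), and sham hearts on 60% over those on 10% fat diet at 0.09 (-0.85 to 1.05).

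Mdh1, the cytosolic partner, has its region (chr11:21571744-21572199) over its own start, on the side it shares with Wdpcp, a cilium gene read in the other direction, so the signal cannot be told apart between the 2 genes. It had 12.5 in TAC and 6.40 in sham hearts on 60% fat diet, against 8.80 in TAC and 17.3 in sham hearts on 10% fat diet. The 2 sham libraries were thus the highest and the lowest of the 4. The only call was in sham hearts on 10% fat diet, so selection enters each ratio with that library. TAC over sham was 0.86 (-0.06 to 2.05) on 60% fat diet and -0.90 (-1.88 to -0.11) on 10% fat diet, where the interval takes in the all-region median of -0.14. The difference between these, 1.76, was the highest of the 10 regions, with an exact conditional interval of 0.51 to 3.31, and ranked 347 from the highest of all regions.

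Got1, the cytosolic aspartate aminotransferase, varied least. Its signal at chr19:43524390-43524900 was 13.3 in TAC and 10.8 in sham hearts on 60% fat diet, against 9.13 in TAC and 12.3 in sham hearts on 10% fat diet, so the highest library was 1.45 times the lowest. Its ratio of TAC over sham was 0.28 (-0.52 to 1.13) on 60% fat diet and -0.39 (-1.32 to 0.45) on 10% fat diet. Got2, the matrix enzyme, varied most, with a highest over lowest signal of 4.53. At chr8:95887081-95887286, the 1 region with no CpG island, it had 3.83 in TAC and 4.17 in sham hearts on 60% fat diet, against 12.8 in TAC and 2.83 in sham hearts on 10% fat diet. TAC hearts on 10% fat diet stood alone above the other libraries and were the only ones called. TAC over sham on that diet was 1.85 (0.19 to 4.88), or 3.61-fold, rank 40 from the highest of all regions, on 11.7 against 2.59 fragments. The call in TAC hearts on 10% fat diet put the region in the table, so this ratio, interval and rank are in part set by selection. The Got2 region had the lowest mean signal of the 10, rank 3707 of 3885.

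By the log2 signal in the 4 libraries, the single-gene regions most like that of Got2, among 1619, were at Mtus1, Map3k3 and Airn, with Euclidean distances of 0.16, 0.28 and 0.33. Their signals in TAC hearts on 10% fat diet were 11.9, 12.1 and 11.6, and in the other 3 libraries they lay between 2.56 and 4.67. With 4 values per region such likeness is a description only.

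Set beside each other, the cytosolic and matrix enzymes of the shuttle differed in order by library. The log2 ratio of Mdh1 over Mdh2 signal, with the 2 Mdh2 regions summed, was -0.22 in TAC and -0.13 in sham hearts on 60% fat diet, against -0.05 in TAC and 1.26 in sham hearts on 10% fat diet. The sham library on 10% fat diet was the one in which Mdh1 stood well above Mdh2. For Got1 over Got2 it was 1.56 in TAC and 1.19 in sham hearts on 60% fat diet, against -0.45 in TAC and 1.79 in sham hearts on 10% fat diet. Only in the TAC library on 10% fat diet was Got2 the higher. On 10% fat diet, TAC over sham was below 0 for both cytosolic genes and above 0 for both matrix genes, but the interval for Got1 and those for Mdh2 include 0. Mdh1 was called only in sham and Got2 only in TAC hearts on that diet, so their extremes go with their selection. The regions also differ in kind, that of Got2 lying inside the gene without a CpG island. The split by compartment was absent on 60% fat diet. There TAC over sham was 0.86 for Mdh1 and 0.28 for Got1, against 0.96 for Mdh2 (summed) and -0.10 for Got2. A pattern by compartment was not tested.

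Pressure overload on 60% fat diet was compared first, to see how the signal at these genes differs after TAC in fat-fed mice. TAC was higher than sham in 8 of the 10 regions, with a median log2 ratio of 0.66 (order-statistic interval -0.10 to 1.12), against 0.32 over all regions. With that median above 0, TAC was the higher in most regions of the series too, and 7 of the 10 lay above it. The shares of all regions above or below 0 in a single comparison are not given here. At least 2-fold higher were 2 regions, the downstream one of Ogdh and the upstream one of Mdh2 (1.12, -0.11 to 2.79), and 0 were 2-fold lower. Of all regions 15.5% were 2-fold higher and 3.11% lower. On 10% fat diet TAC was higher than sham in 7 regions, with a median of 0.25 (-0.73 to 0.48) against -0.14 over all regions. Got2 was the 1 region at least 2-fold higher, with 0 lower, and 7.98% of all regions were higher and 11.7% lower. Ratios centred on the all-region median lie 0.32 lower on 60% and 0.14 higher on 10% fat diet, and Got1 then turns to -0.05 on 60% fat diet. With the peak in place of the average signal, Got2 turns to 0.22 on 60% fat diet.

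**Figure D3:**
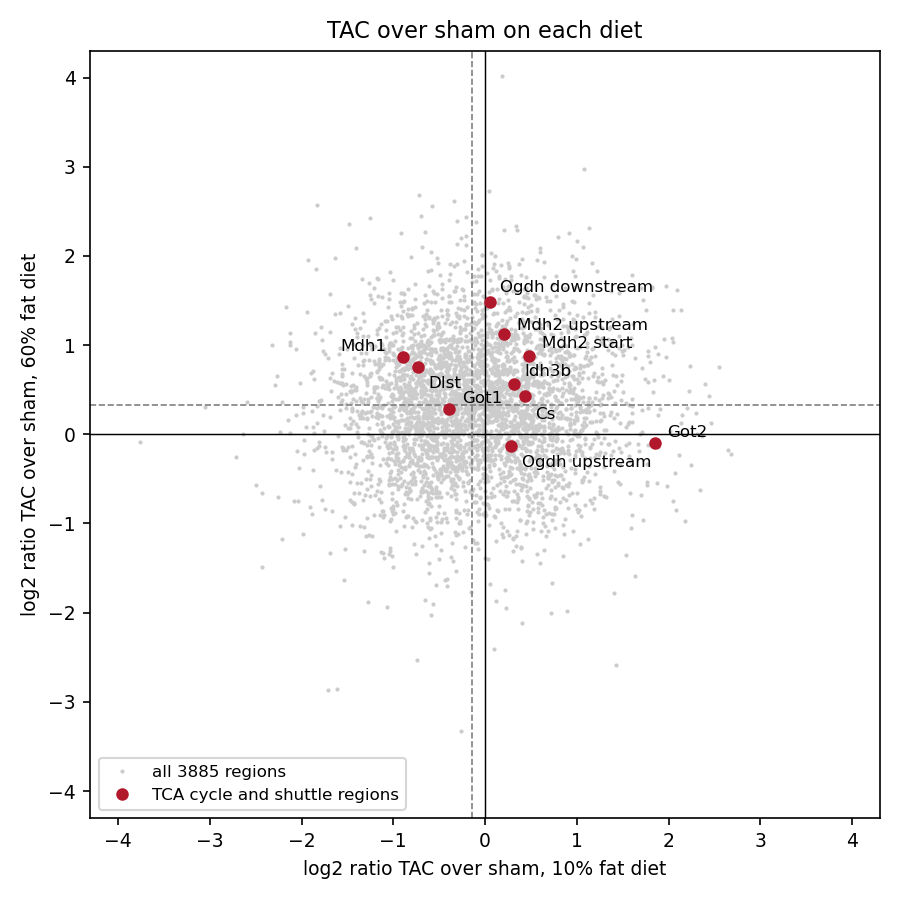
Log2 ratio of TAC over sham signal on 60% fat diet (vertical) against that on 10% fat diet (horizontal) for all 3885 regions (grey) and the 10 TCA cycle and shuttle regions (red), with dashed lines at the all-region medians of 0.32 and -0.14. Mdh1 and Dlst lie at the upper left, Got2 alone at the far right, and the 2 Mdh2 regions and the downstream Ogdh region at the top.

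The effects of TAC on the 2 diets were subtracted to compare the response between diets. The effect on 60% fat diet was at least 1 log2 unit above that on 10% fat diet in 3 regions, Mdh1 with 1.76, Dlst with 1.48 (-0.47 to 3.89) and the downstream region of Ogdh with 1.43 (-0.14 to 3.24). The Ogdh region is below 1 unit with centring (0.98), quantile normalization (0.95) or peak signal (0.76). It was at least 1 unit below in 1 region, Got2, with -1.95 (-5.27 to 1.23). Over all regions 28.9% were above and 8.7% below, and the median difference was 0.53 in the 10 regions and 0.45 over all. The count of members above is close to the share of all regions.

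Diet under pressure load is the question of the comparison within TAC hearts. Signal was higher on 60% fat diet in 7 of the 10 regions, with a median of 0.39 (-0.53 to 0.82), against -0.14 over all regions. The upstream region of Mdh2 was 2-fold higher with 1.28 (0.02 to 3.08), rank 131 of all regions, and Got2 was 2-fold lower with -1.52 (-4.00 to 0.06). The background was 7% higher and 11.3% lower. The same comparison in sham hearts addresses diet alone. Signal was lower on 60% fat diet in 8 of the 10 regions, and in most regions of the series, whose median was -0.57. The median of the 10 was -0.14 (-1.06 to 0.37). Thus 7 of the 10 lay above the all-region median and are positive once centred on it. Mdh1 at -1.30 (-2.47 to -0.48) and Dlst at -1.06 (-2.89 to 0.27) were 2-fold lower and 0 regions were higher, against 24.8% and 2.01% of all regions. Centred, Mdh1 stood at -0.73 and Dlst at -0.49, both within 2-fold. These comparisons share libraries with those of TAC and sham, so 1 high or low library enters 2 of the 4 ratios of a region.

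**Figure D4:**
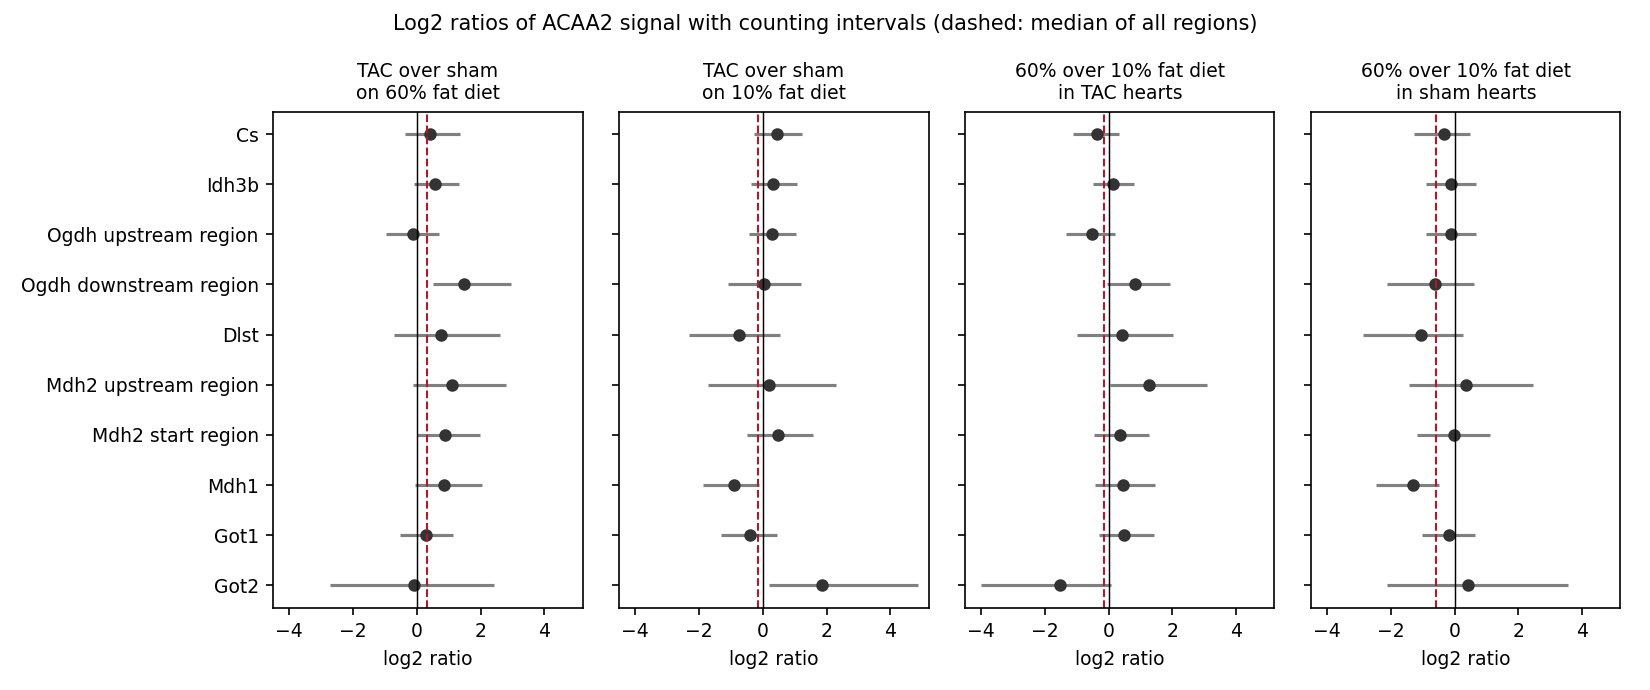
Log2 ratios of the 10 regions in the 4 comparisons (points) with 95% counting intervals (lines), a solid line at 0 and a dashed line at the median of all 3885 regions. Of the 40 intervals 5 lie apart from 0 (15.7% of those of all regions do) and 4 apart from the all-region median (10.9%), and no interval of Mdh1 is among these 4. The 5 lie at Mdh1, Got2, the downstream Ogdh region and the upstream Mdh2 region. Each of these regions was called only in the library that makes its ratio extreme, so selection enters these intervals.

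Of 21900 protein-coding genes of RefSeq 20.8% had a region, so most genes of any list lack one. Of 13 other TCA cycle enzymes 2 had one, Sdhb and Sdhc, which encode the iron-sulfur and a membrane subunit of succinate dehydrogenase. The start region of Sdhb had 8.0 in TAC and 7.55 in sham hearts on 60% fat diet, against 4.64 in TAC and 14.6 in sham hearts on 10% fat diet, and was 2-fold lower after TAC on 10% fat diet (-1.47, -3.08 to -0.42). A second region, 3238 bp upstream of Sdhb and nearer to a predicted gene, was 2-fold higher in the same comparison (1.03, -0.50 to 3.14). Sdhc had 5.6 in TAC and 11.2 in sham hearts on 60% fat diet, against 7.60 in TAC and 11.3 in sham hearts on 10% fat diet. The start region of Sdhb was highest in sham hearts on 10% fat diet, as were Mdh1, Dlst and 42.8% of all regions, while Sdhc was high in both sham libraries. The 3 inner-membrane carriers of the shuttle (Slc25a11, Slc25a12 and Slc25a13) and both enzymes of the glycerol phosphate shuttle (Gpd1 and Gpd2) had 0 regions. Of 4 assembly factors of succinate dehydrogenase 1 had a region, Sdhaf3, listed under its older symbol, with 9.86 in TAC and 9.57 in sham hearts on 60% fat diet and 5.0 in TAC and 9.14 in sham hearts on 10% fat diet.

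Of 12 genes that feed or drain the cycle 4 had a region. All 4 were higher after TAC on both diets, as were 5 of the 10 regions above and 29.9% of all regions. At least 2-fold higher were 3 of the 4 on 60% fat diet, where 15.5% of all regions were, and 1 on 10% fat diet, where 7.98% were. Acly, which splits citrate to acetyl-CoA in the cytosol, has its region at its own start. It had 14.7 in TAC and 3.71 in sham hearts on 60% fat diet, against 10.4 in TAC and 8.86 in sham hearts on 10% fat diet. TAC over sham was 1.74 (0.26 to 4.17) on 60% fat diet. Sham hearts on 60% fat diet were the lowest and lay at -1.06 (-3.54 to 0.67) against sham hearts on 10% fat diet. Slc25a1, the citrate carrier that supplies Acly, had 18.7 in TAC and 8.33 in sham hearts on 60% fat diet, against 15.7 in TAC and 12.0 in sham hearts on 10% fat diet, in a region 6152 bp downstream of its start, and was 2-fold higher after TAC on 60% fat diet (1.08, -0.11 to 2.58). Pck2, the mitochondrial phosphoenolpyruvate carboxykinase, was 2-fold higher after TAC on 60% fat diet (1.53, -0.02 to 3.97), and Pcx, the pyruvate carboxylase that makes oxaloacetate, on 10% fat diet (1.10, -0.38 to 3.16). The regions of Pck2 and Pcx lie 17045 and 115096 bp from the starts of these genes and nearer to other genes. Markers of heart muscle cells had a region in 3 of 8 genes (Myh6, Ttn and Pln) and markers of other heart cells in 2 of 9 (Kdr and Cd68). By the authors' distances, the regions of Ttn and Kdr lay 54474 and 44668 bp downstream of the starts of these genes. Those of Myh6 and Pln lay upstream, at -2160 and -2917 bp, and list other genes too. On 10% fat diet TAC over sham was -1.11 (-3.09 to 0.33) at Myh6, -1.89 (-5.20 to -0.18) at Ttn and -2.21 (-5.44 to -0.65) at Kdr, and these 3 were highest in sham hearts on 10% fat diet, as were Mdh1, Dlst and 42.8% of all regions. It was 0.12 (-5.91 to 6.92) at Pln, and -0.38, 0.31 and -0.65 in the 3 regions of Cd68, which lie among several other genes. The Cd68 regions with -0.38 and -0.65 were highest in sham hearts on 10% fat diet too, with 13.2 and 24.25. Any link of these markers to the values of Mdh1 and Dlst was not tested. Pln was highest in sham hearts on 60% fat diet, with TAC over sham at -1.87 (-5.37 to -0.07) on that diet. Signal at chromatin is not expression, so these counts do not measure which cells were present.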

How the data were processed

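The authors deposited 1 table of merged regions with, per library, the average and the highest fragment pileup (signal) and a mark for a called interval, and per pair of libraries a log2 ratio, per the file headers. BWA, SICER and mm10 appear in the submitters' processing notes, while versions, filters and scaling are not given here. All of the highest values (100%) are whole numbers. Whether values were scaled or rounded, or depths matched, cannot be told from this. The members, lists and motifs were chosen with earlier results of these data known.

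Ratios were taken here as log2 of the average signal plus 1, TAC over sham and 60% over 10% fat diet, and called at 2-fold. Estimated fragments are the average signal times region length over 224, the constant the authors' own estimates imply. Intervals of ratios are exact Clopper-Pearson intervals (95%) of these fragments without the pseudocount. The interval of a difference between diets is the exact conditional one of an odds ratio, and that of a median comes from order statistics. With 1 library per group no single comparison, nor the difference between diets, could be tested, and a model of surgery and diet as additive terms was not fitted. A calculation on simulated pairs was checked first. RefSeq promoter windows run from 250 bases before to 50 after a start (GRCm38.p6). Named beside the members were, per pathway list, the 2 genes of highest mean signal and each gene with a 2-fold region. Python 3.11.15, pandas 2.3.3 and scipy 1.17.1 were used.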

Additional observations from a re-analysis of the deposited data

Results flagged for a closer look

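The ratio of TAC over sham had opposite signs on the 2 diets, before and after centring on the median of all regions, in 4 of the 10 regions. The share of all regions with opposite signs is not given here, so the count has no background. With peak signal, Got2 had 1.58 on 10% and 0.22 on 60% fat diet, so its signs no longer differed. With 1 library per group, the difference was not tested. The effect on 60% minus that on 10% fat diet was 1.76 for Mdh1, 1.48 for Dlst, -0.41 for the upstream region of Ogdh and -1.95 for Got2. Mdh1 and Dlst were each highest in sham hearts on 10% fat diet and lowest in sham hearts on 60% fat diet, and Got2 was high in TAC hearts on 10% fat diet alone.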

How the results depend on the processing

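No paired analysis was possible because each group has 1 library, and for the same reason no library could be left out in turn. The ratio was computed in 5 other ways: pseudocounts of 0.5 and 3, peak signal, centring on the all-region median, and quantile normalization. Every value of the 10 regions in the 5 comparisons stayed within its counting interval, which is so wide that this check could hardly fail. Signs changed or were lost more often. In sham hearts on 60% over 10% fat diet this held in 2 ways for Cs and Idh3b. It held in 3 for the upstream Ogdh region, the Mdh2 start region and Got1. For the difference between diets it held in 1 way for Cs and in 2 for Idh3b and the Mdh2 start region. The median in sham hearts on 60% over 10% fat diet, -0.14, turned to 0.43 with centring and 0.36 with quantile normalization, both of which remove the shift of all regions. In the 5 regions that list 1 gene, the median turned to -0.36 in TAC hearts on 60% over 10% fat diet and to -0.0084 for the difference between diets.

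Counts of 2-fold regions were small and moved easily. For TAC over sham on 10% fat diet (1 region) the count was 0 in regions within 1000 bp of a listed start, of the gene's own start, or with a higher library at or above the median, and 3 at 1.5-fold, which 46.8% of all regions passed. For TAC over sham on 60% fat diet (2 regions) it was 1 with a pseudocount of 3, peak signal, centring, quantile normalization, single-gene regions or the stronger regions. It was 5 at 1.5-fold, passed by 44.2% of all regions, and 0 with neighbouring regions of a gene summed. For 60% over 10% fat diet in sham hearts (2 regions) it was 1 with a pseudocount of 3, the stronger regions or centring, the last being Got2 on the higher side, and 0 with peak signal, quantile normalization or single-gene regions. For 60% over 10% fat diet in TAC hearts (2 regions) it was 1 in single-gene regions, near a listed start, near the gene's own start or summed by gene, and 0 in the stronger regions. For the difference between diets (4 regions) it was 2 in single-gene or stronger regions, 3 with peak signal, centring, quantile normalization, near a listed start, near the gene's own start or summed by gene, and 6 at 1.5-fold, passed by 60.6% of all regions. The selections by the gene's own start and the sums by gene were chosen after seeing the data. Between 2.59 and 44.5 fragments per region and library limit every single ratio.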
